A study of Mus musculus with 6 samples.

Results

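The genes described are 9 members of the interferon-linked PARP family: Parp1, Parp8, Parp9, Parp10, Parp11, Parp12, Parp14, Zc3hav1 (also called ZAP or PARP13) and Dtx3l, the ubiquitin ligase partner of Parp9. They were taken by symbol from the 24411 genes of the count tables, with no filter on their values. The list was chosen with earlier results of these data known. Primary microglia (PM) from pooled brains of ICR mice at postnatal day 3 were collected by shaking from mixed glial cultures and sequenced after rRNA depletion with a directional kit. Of these, 3 libraries were from PM given GSK-J4 (10 μM, 4-h) and 3 from PM given LPS (10 ng/ml) together with GSK-J4 (10 μM, 4-h). GSK-J4 is a cell-permeable inhibitor of the H3K27 demethylases JMJD3 and UTX, and LPS is the bacterial ligand of TLR4. Untreated PM, PM given LPS alone and BV-2 cells were not analysed here, so both groups carry GSK-J4 and every difference below is between PM given LPS with GSK-J4 and PM given GSK-J4 alone.

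ADP-ribosyltransferases move ADP-ribose from NAD onto proteins or nucleic acids. Some build chains, as Parp1 does at DNA breaks, and many others add a single unit. Several of the latter, together with the catalytically inactive Zc3hav1, are transcribed in response to interferon in macrophages and fibroblasts, and act on viral RNA, on ubiquitin or on signalling proteins. PM make type I interferon after LPS through the TLR4 adaptor TRIF.

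On the mm10 assembly (GENCODE vM21 annotation), 3 of the 9 genes lie together on chromosome 16. Parp14 (16:35832874-35871544, minus strand) is followed after 54966 bases by Dtx3l (16:35926511-35939151, minus strand). Dtx3l and Parp9 (16:35938470-35972605, plus strand) stand head to head, and their annotated 5' ends overlap by 682 bases. Another 2, Zc3hav1 (6:38305286-38354603, minus strand) and Parp12 (6:39086410-39118349, minus strand), are separated by 731806 bases. Parp11 (6:127446840-127494261, plus strand) is elsewhere on the same chromosome. Parp10 (15:76231174-76243441, minus strand), Parp8 (13:116854820-117025537, minus strand) and Parp1 (1:180568924-180601254, plus strand) each lie on a chromosome of their own.

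**Figure D1:**
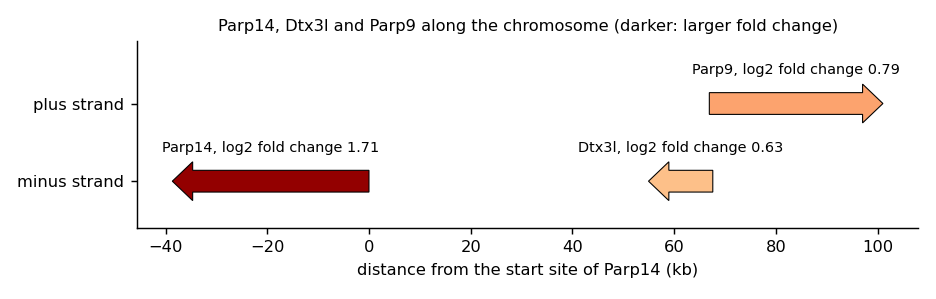
Map of Parp14, Dtx3l and Parp9. The horizontal axis is the distance in kb from the start site of Parp14, arrows point in the direction of transcription, the rows separate the strands, and shading follows the log2 fold change of LPS + GSK-J4 over GSK-J4. Parp14, with 1.71, is the darkest of the 3, and the neighbours Parp9 (0.79) and Dtx3l (0.63) have similar values.

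Promoter windows (250 bases before to 50 after the start, RefSeq, GRCm38.p6, the mm10 assembly) were found for 6 of the 9 genes, all but Parp14, Parp9 and Parp10, which had no window of their own. Those of Dtx3l, Zc3hav1, Parp12 and Parp11 are printed 5′ to 3′ on the strand of the gene, since the first lies inside Parp9 and the other 3 belong to the genes on chromosome 6. Parp11 has a pair of windows in the table, and the one at its first annotated start is printed. Capitals mark matches to 3 motifs searched on both strands: the core of the interferon-stimulated response element (ISRE; GAAA, 2 free bases, GAAA), that of the gamma-activated site (GAS; TTC, 3 free bases, GAA) and that of the NF-kB site (GGGA, 4 free bases, CC). The windows are Dtx3l at chr16:35938978-35939277 (minus), Zc3hav1 at chr6:38354554-38354853 (minus), Parp12 at chr6:39118300-39118599 (minus) and Parp11 at chr6:127446590-127446889 (plus).
Dtx3l: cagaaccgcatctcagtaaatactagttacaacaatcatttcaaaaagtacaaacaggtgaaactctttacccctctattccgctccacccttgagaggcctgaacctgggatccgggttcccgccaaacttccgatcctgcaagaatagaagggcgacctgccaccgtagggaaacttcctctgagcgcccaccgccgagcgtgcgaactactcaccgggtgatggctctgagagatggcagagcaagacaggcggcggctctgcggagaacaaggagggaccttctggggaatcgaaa
Zc3hav1: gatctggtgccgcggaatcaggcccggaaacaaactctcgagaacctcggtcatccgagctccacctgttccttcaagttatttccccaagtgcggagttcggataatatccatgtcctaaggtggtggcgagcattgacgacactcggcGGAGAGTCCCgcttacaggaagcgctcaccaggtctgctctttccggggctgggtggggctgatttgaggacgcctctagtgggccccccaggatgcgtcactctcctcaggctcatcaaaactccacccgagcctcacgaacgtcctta
Parp12: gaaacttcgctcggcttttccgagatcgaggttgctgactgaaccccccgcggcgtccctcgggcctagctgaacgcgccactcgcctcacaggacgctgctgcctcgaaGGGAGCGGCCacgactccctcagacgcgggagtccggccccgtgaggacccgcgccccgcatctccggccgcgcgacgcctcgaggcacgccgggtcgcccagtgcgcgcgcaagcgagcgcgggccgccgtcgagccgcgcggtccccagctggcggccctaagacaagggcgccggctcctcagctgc
Parp11: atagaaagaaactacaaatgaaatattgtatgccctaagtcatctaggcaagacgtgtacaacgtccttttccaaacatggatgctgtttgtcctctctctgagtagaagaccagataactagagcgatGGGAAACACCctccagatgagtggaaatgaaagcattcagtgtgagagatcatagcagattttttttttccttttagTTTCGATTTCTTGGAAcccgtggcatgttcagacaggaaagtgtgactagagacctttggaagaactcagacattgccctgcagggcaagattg

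All 300 bases of the Dtx3l window lie inside the annotated Parp9 gene, and 229 of them in Parp9 exons. The GENCODE start of Dtx3l (35939151) also lies inside the window, and 174 of the bases are in Dtx3l exons. The window therefore reaches less far before that start than a window placed on it would. The Dtx3l window held no match to any of the 3 motifs, and bases further upstream were not searched. The Zc3hav1 window held 1 NF-kB match (GGAGAGTCCC, on the opposite strand), from -100 to -91 when the first base at the start is counted as 0. The Parp12 window held 1 as well (GGGAGCGGCC, from -140 to -131). The printed Parp11 window held all 3 motifs: an NF-kB match (GGGAAACACC, from -121 to -112), an ISRE match (TTTCGATTTC, on the opposite strand, from -44 to -35) and a GAS match (TTCTTGGAA, from -37 to -29) that shares 3 bases with the ISRE match. The other Parp11 window (6:127453377-127453676, plus strand), near which several further Parp11 transcripts start, held no match. Of the remaining windows not printed, that of Parp8 held no match. That of Parp1 held NF-kB matches from -171 to -162 (GGGACAAACC) and, on the opposite strand, from 10 to 19 (GGGCGGTCCC). Among all 32851 windows of the table, 3.44% held an ISRE core, 8.3% a GAS core and 20.7% an NF-kB core. These are matches of letters, and binding was not measured.

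Each library had 2597505 to 3472716 counts on genes, of which the 9 genes together took 852 to 1529 under GSK-J4 alone and 1426 to 1536 after LPS was added. The ribosomal precursor Rn45s held 25.6% ± 5.88 (SD, n = 3) of all counts under GSK-J4 alone, against 47.1% ± 1.15 (SD, n = 3) with LPS, and GSK-J4 replicate 3 had the highest share of its group (32.4%) and the fewest counts. Levels are therefore given as CPM, counts relative to the TMM-scaled library total, where 3 counts correspond to 0.673 to 1.24 CPM. The summed level of 11 microglial markers was 3467 to 3584 CPM in GSK-J4 and 2847 to 2866 CPM in LPS + GSK-J4. Summed markers of other cells were higher in LPS + GSK-J4 for astrocytes (126 to 153 against 51.2 to 56.5 CPM, 7 genes), the oligodendrocyte lineage (239 to 269 against 124 to 154 CPM, 7 genes) and neurons (14.1 to 16.4 against 6.06 to 7.08 CPM, 4 genes), and overlapped for fibroblasts (131.5 to 393 against 71.8 to 262 CPM, 5 genes). The neuron sum rested mostly on Tubb3, its single tested marker, with a mean of 5.27 CPM under GSK-J4 alone and 13.9 with LPS. Snap25 was also higher on average, and Rbfox3 and Syt1 were lower, each from 0 to 5 counts per library. Among the astrocyte markers, Aldh1l1 was lower on average (2.94 CPM with LPS against 3.27) and the others were higher. No marker was at 0 in every library. The part of these differences in the results below was not tested, and in bulk RNA fewer cells of a type and less RNA per cell cannot be told apart. The p-values measure the spread between the 3 libraries of a group, which came from pooled brains. In both groups, the raw counts of replicates 1 and 2 were closer to each other than to those of replicate 3.

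The question put to the 9 genes was which of them differed between the groups. Parp14 was up-regulated. Parp9 and Zc3hav1 were higher at the adjusted p threshold of 0.01 but below the fold threshold, Dtx3l was just above that p, and the other 5 did not pass it. By the criterion of the study (adjusted p of at most 0.01 and log2 fold change of at least 1.5 in size), applied with the edgeR quasi-likelihood test, 1 of 9 was called higher and 0 lower, where 2.95% of the 10133 genes tested were called higher and 0.809% lower. Without a minimum fold change, 3 of the 9 passed as higher and 0 as lower, against 8.42% and 5.46% of all genes tested. At an unadjusted p below 0.05, 5 were higher and 0 lower by the same edgeR test, against 19.3% and 15.5% of all genes tested. The median log2 fold change of the 9 was 0.61, and 0.46 without Parp14, beside -0.00064 for all genes tested.

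**Figure D2:**
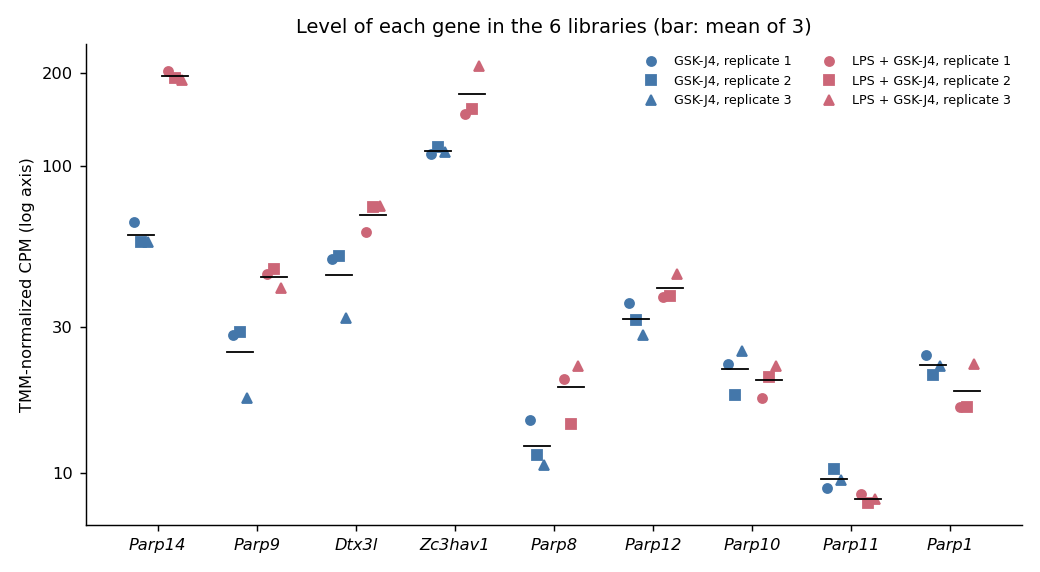
Level of each of the 9 genes in each library, as TMM-normalized CPM on a log axis. Blue symbols are GSK-J4, red symbols LPS + GSK-J4, the symbol shape gives the replicate number and the bar is the mean of 3 libraries. The Parp14 groups are the furthest apart, at a mean of 59.5 against 195.3 CPM, while those of Parp10 and Parp1 overlap.

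Parp14, a macrodomain mono-ADP-ribosyltransferase known as a coactivator of STAT6 and as a target of interferon, had the largest difference of the 9. Its level was 65.6, 56.6 and 56.5 CPM in GSK-J4 replicates 1, 2 and 3, and 203.7, 193 and 189 CPM in LPS + GSK-J4 replicates 1, 2 and 3. The groups did not overlap, and the lowest LPS + GSK-J4 library was far above the highest GSK-J4 library. The log2 fold change was 1.71 (SE 0.12, 95% interval 1.45 to 1.98, edgeR adjusted p = 4.90e-08), or 3.27-fold (2.72 to 3.93). This placed Parp14 at the 97.9th percentile of all genes tested. Leaving out each library in turn gave log2 fold changes of 1.67 to 1.78, and the gene was called each time. Scaling by library totals alone gave 1.14 (adjusted p = 4.15e-06), below the fold threshold, because that scaling moved the median of all genes by -0.57.

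Parp9, a macrodomain protein, and Dtx3l, a ubiquitin ligase of the Deltex family, form a complex. Parp9 was at 28.1, 28.7 and 17.6 CPM in GSK-J4 and at 44.5, 46.2 and 40.1 CPM in LPS + GSK-J4. Dtx3l was at 49.8, 51.0 and 31.9 CPM in GSK-J4 and at 60.9, 73.3 and 73.9 CPM in LPS + GSK-J4. In neither gene did the groups overlap, and for both the lowest library was GSK-J4 replicate 3. The log2 fold change of Parp9 was 0.79 (SE 0.19, 95% interval 0.39 to 1.19, edgeR adjusted p = 0.00598). That of Dtx3l was 0.63 (SE 0.17, 95% interval 0.26 to 1.00, edgeR adjusted p = 0.0147). Parp9 kept an adjusted p of at most 0.01 in 2 of the 6 fits that leave out a library, and Dtx3l in 0 of 6. Without GSK-J4 replicate 3, the values were 0.62 (adjusted p = 0.0211) for Parp9 and 0.46 (adjusted p = 0.0473) for Dtx3l. The highest adjusted p of these edgeR fits came without LPS + GSK-J4 replicate 2, at 0.0365 for Parp9 (0.75) and 0.0692 for Dtx3l (0.59). The DESeq2 Wald test gave an adjusted p of 0.0128 for Parp9 and 0.0314 for Dtx3l.

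Zc3hav1, a zinc-finger protein that binds CpG-rich viral RNA and recruits the decay machinery, was the most abundant of the 9 per kb. Its level was 109, 115 and 111 CPM in GSK-J4 and 147, 153 and 211 CPM in LPS + GSK-J4. The groups did not overlap, and LPS + GSK-J4 replicate 3 stood above the other two. The log2 fold change was 0.61 (SE 0.14, 95% interval 0.31 to 0.91, edgeR adjusted p = 0.00507). Without LPS + GSK-J4 replicate 3 it was 0.43 (adjusted p = 0.00798), and the adjusted p was at most 0.01 in 2 of the 6 fits that leave out a library. With library totals alone, Parp9, Zc3hav1 and Dtx3l had log2 fold changes of 0.21, 0.05 and 0.05 and did not pass the edgeR test (adjusted p = 0.424, 0.831 and 0.843). Subtracting the median shift of that scaling gave 0.78, 0.61 and 0.62, which returns the TMM values by construction and is no separate check. The counts do not separate the long isoform, which carries the PARP-like domain, from the short one.

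Parp12, a zinc-finger mono-ADP-ribosyltransferase with antiviral activity, was at 35.9, 31.4 and 28.2 CPM in GSK-J4 and at 37.5, 37.8 and 44.6 CPM in LPS + GSK-J4. The groups were separate, but only narrowly. The log2 fold change of 0.32 (SE 0.16, 95% interval -0.03 to 0.66) did not pass the test (edgeR adjusted p = 0.182), and with library totals it changed sign to -0.25. Parp8, a mono-ADP-ribosyltransferase, was at 14.9, 11.4 and 10.6 CPM in GSK-J4 and at 20.3, 14.5 and 22.3 CPM in LPS + GSK-J4. The groups overlapped, since LPS + GSK-J4 replicate 2 was below GSK-J4 replicate 1. The log2 fold change of 0.61 was as large as that of Zc3hav1 but with a wider interval (SE 0.23, 0.12 to 1.10, edgeR adjusted p = 0.0665).

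The other 3 genes had negative values. Parp10, a mono-ADP-ribosyltransferase first described as a partner of Myc, was at 22.6, 18.0 and 24.9 CPM in GSK-J4 and at 17.6, 20.6 and 22.3 CPM in LPS + GSK-J4. The groups overlapped over most of their range, and the log2 fold change was -0.10 (SE 0.20, 95% interval -0.53 to 0.32, edgeR adjusted p = 0.759). Parp11, which ADP-ribosylates a ubiquitin ligase that controls the type I interferon receptor, was at 8.97, 10.3 and 9.53 CPM in GSK-J4 and at 8.59, 8.01 and 8.26 CPM in LPS + GSK-J4. It had the lowest level of the 9 per kb, and all 3 LPS + GSK-J4 libraries lay just below the GSK-J4 libraries. The log2 fold change was -0.21 (SE 0.25, 95% interval -0.75 to 0.32, edgeR adjusted p = 0.591). Parp1, the nuclear sensor of DNA breaks, was at 24.3, 20.9 and 22.4 CPM in GSK-J4 and at 16.4, 16.4 and 22.7 CPM in LPS + GSK-J4. Replicate 3 of LPS + GSK-J4 lay among the GSK-J4 libraries, and the log2 fold change was -0.29 (SE 0.20, 95% interval -0.71 to 0.13, edgeR adjusted p = 0.333). None of these intervals reaches the size of the Parp14 difference, and each includes 0 and reaches further below it than above. With library totals alone, Parp1, Parp10 and Parp11 were at -0.85, -0.66 and -0.78 (edgeR adjusted p = 0.0029, 0.0137 and 0.0243), so that Parp1 passed the p threshold. Less the median shift of that scaling they were at -0.29, -0.10 and -0.22, again the TMM values by construction.

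Over the 9 genes, the groups were separate upwards in 5 (Parp14, Parp9, Dtx3l, Zc3hav1 and Parp12) and downwards in 1 (Parp11), where 19.8% and 18.4% of all genes tested were separate in those directions. The summed level of the 9 was 312 to 359 CPM in GSK-J4 and 557 to 634 CPM in LPS + GSK-J4.

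**Figure D3:**
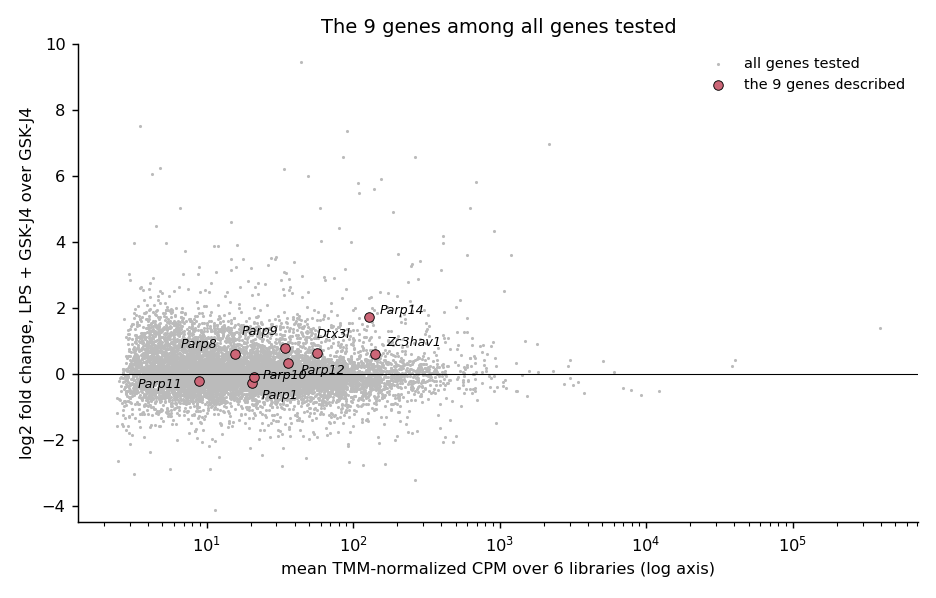
The 9 genes (red) among all 10133 genes tested (grey). The horizontal axis is the mean TMM-normalized CPM over 6 libraries on a log axis, and the vertical axis is the log2 fold change of LPS + GSK-J4 over GSK-J4. Parp14, at 1.71, is the highest of the 9, and Parp10, Parp11 and Parp1 lie just below 0.

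Per kb of exon, Parp14 stood 4th of the 9 in GSK-J4 and 2nd in LPS + GSK-J4. In GSK-J4 the mean was 17.1 CPM per kb for Zc3hav1, 7.97 for Parp12, 7.72 for Dtx3l, 6.40 for Parp14, 5.11 for Parp10, 5.09 for Parp9, 4.25 for Parp1, 1.39 for Parp8 and 1.37 for Parp11. Neighbours in this order did not overlap between Zc3hav1 and Parp12, between Parp14 and Parp10, and between Parp1 and Parp8, and the rest lay within the spread of the libraries. In LPS + GSK-J4 the mean was 26.1 CPM per kb for Zc3hav1, 21.0 for Parp14, 12.1 for Dtx3l, 9.999 for Parp12, 8.94 for Parp9, 4.71 for Parp10, 3.50 for Parp1, 2.14 for Parp8 and 1.18 for Parp11. The Parp14 libraries (20.3 to 21.9 CPM per kb) lay just below those of Zc3hav1 (22.6 to 32.4). Dtx3l and Parp12, Parp12 and Parp9, and Parp10 and Parp1 overlapped in that group. Parp12 and Dtx3l also changed places, with overlapping libraries in both groups, as did Parp10 and Parp9, which overlapped in GSK-J4 but not in LPS + GSK-J4. The annotation used for counting is not given in the sources used here, so these lengths, from GENCODE, may differ from the counted ones.

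Ratios of counts within a library do not depend on the scaling of libraries, and 5 of them were compared by 2-sided exact permutation tests, where 3 libraries against 3 cannot go below p = 0.1. The ratio of Dtx3l to Parp9 was 1.77, 1.77 and 1.81 in GSK-J4 and 1.37, 1.59 and 1.85 in LPS + GSK-J4. The groups overlapped (exact permutation p = 0.4, adjusted over the 5 ratios 0.4), with a spread in LPS + GSK-J4 on both sides of the GSK-J4 values. The ratio of Parp14 to Parp9 was 2.34, 1.97 and 3.21 in GSK-J4 and 4.58, 4.18 and 4.72 in LPS + GSK-J4, a change of 1.83-fold. The ratio of Parp14 to its neighbour Dtx3l changed by 2.06-fold, that to Zc3hav1 by 2.18-fold and that to Parp10 by 3.55-fold. In each of these 4 ratios all LPS + GSK-J4 libraries were above all GSK-J4 libraries (exact permutation p = 0.1, the smallest possible, adjusted 0.125).

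**Figure D4:**
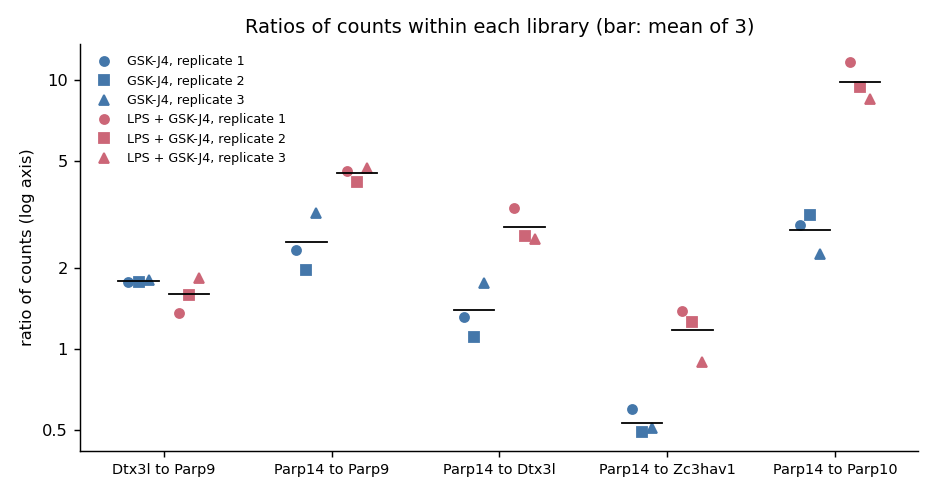
Ratios of counts between pairs of the genes within each library, on a log axis. Blue symbols are GSK-J4, red symbols LPS + GSK-J4, shapes give the replicate number and bars the mean of 3 libraries. The ratio of Dtx3l to Parp9 overlaps between the groups, while each ratio of Parp14 to another gene is higher in all 3 LPS + GSK-J4 libraries.

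Across the 6 libraries, and as a description only, Pearson's r of log2(CPM + 1) was 0.955 between Parp9 and Dtx3l, 0.890 between Parp9 and Parp14, and 0.828 between Dtx3l and Parp14. These points share the 2 groups, so any pair of genes that differ between the groups correlates. Outside the 9, the genes most like Parp14 were Gbp5 (r = 0.999), Stx11 and Nfkbiz, of which Gbp5 is an interferon-induced GTPase and Nfkbiz a regulator of NF-kB. Those most like Parp9 were Gnao1 (r = 1.000), Prdx1 and Bpgm. Btbd1 (r = 0.992), Ppp2ca and Agpat4 were most like Dtx3l, and Agrn (r = 0.995), Polr1d and Mmp9 most like Zc3hav1.

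Genes next to the 9 give the local background. Kpna1, an importin that lies 6144 bases past Parp9, had a log2 fold change of -0.21 (edgeR adjusted p = 0.319), and Hspbap1, 4396 bases beyond the 3' end of Parp14, had 3.66 CPM under GSK-J4 alone against 1.42 CPM with LPS, too low to be tested. Zc3hav1l, a relative of Zc3hav1 at a distance of 6026 bases, had 1.38 (SE 0.40, edgeR adjusted p = 0.0195) from 3 to 26 counts per library. Itpkb, the annotated gene before Parp1 at 144121 bases, had 0.74 (edgeR adjusted p = 0.00608). The noncoding 4930599N23Rik, which starts 123 bases from Parp12 on the other strand, had 0 to 1 counts per library in GSK-J4 and 3 to 11 in LPS + GSK-J4, and was not tested. The other 9 neighbours (Mir6904, Isl1, Gm6416, Mir1942, Mir6953, Gm38404, Cracr2a, 1700025N23Rik and Ttc26) had 0 to 7 counts per library and were not tested.

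The interferon pathway itself, given by 15 genes from ligand to target, was all tested. By edgeR, 6 of 15 were called higher and 0 lower, beside 2.95% and 0.809% of all genes tested, with a median log2 fold change of 1.295. Ifnb1, the ligand, had 0 or 1 counts per library in GSK-J4 and 189 to 250 in LPS + GSK-J4. Its receptor chains Ifnar1 (0.07) and Ifnar2 (-0.03) did not pass the test. The called targets and regulators were Rsad2 (6.59), Ifit1 (6.58), Isg15 (5.90), Irf1 (3.27) and Usp18 (1.54), all on the log2 scale. Ifit1 had 16, 3 and 1 counts in GSK-J4, so its fold change is uncertain (95% interval 5.88 to 7.27). Ifnb1 and Ifit1 passed the filter only through LPS + GSK-J4, where they are high. With at least 10 counts in every library, 4 genes of the list were called by edgeR. In that fit 176 of 8594 genes tested were called higher and 56 lower. Parp14 (1.71) had a value near that of Usp18, an inhibitor of interferon signalling, and the remaining 8 of the 9 genes lay below it. Irf7 (1.37) and Mx1 (1.30) passed the adjusted p without reaching the fold threshold. The rest of the list, Irf9 (0.62), Stat2 (0.45), Irf3 (0.37), Tyk2 (0.05) and Jak1 (-0.24), did not pass it.

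**Figure D5:**
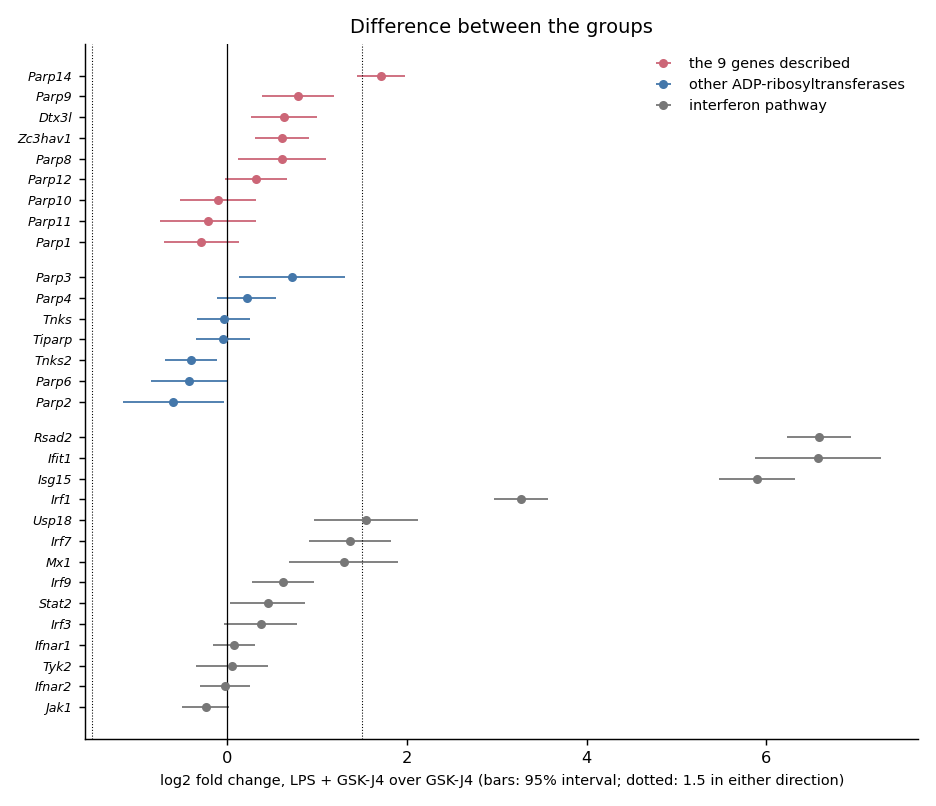
Log2 fold change of LPS + GSK-J4 over GSK-J4 with its 95% interval from the edgeR fit, for the 9 genes (red), the other ADP-ribosyltransferases tested (blue) and the interferon pathway (grey). Dotted lines mark 1.5 in either direction. Of the 9, Parp14 alone lies past the dotted line, at 1.71, and the interferon pathway reaches 6.59 in Rsad2. Ifnb1 is not drawn, since its GSK-J4 libraries had 0 or 1 counts.

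Of 8 other ADP-ribosyltransferases, 7 were tested and 0 called by edgeR, with 0 passing the adjusted p alone, and 1 higher and 3 lower at an unadjusted p below 0.05 (19.3% and 15.5% of all genes tested). Their median log2 fold change was -0.05. The largest was that of Parp3, a DNA-repair enzyme, at 0.72 (SE 0.28, edgeR adjusted p = 0.0751). Tiparp, a mono-ADP-ribosyltransferase induced by the aryl hydrocarbon receptor, had a mean of 223 CPM under GSK-J4 alone and of 216 CPM with LPS. Of 7 genes that remove ADP-ribose, 5 were tested and 0 called by edgeR (0 higher and 1 lower at an unadjusted p below 0.05, beside the same 19.3% and 15.5%), with a median of -0.44. The largest difference was that of Adprhl2, a hydrolase of ADP-ribosyl-serine, at -0.67 (SE 0.26, edgeR adjusted p = 0.0795).

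Of 13 genes that supply or use NAD, 9 were tested and 0 called by edgeR (1 higher and 5 lower at an unadjusted p below 0.05, where all genes tested gave 19.3% and 15.5%), with a median of -0.51. Naprt, which makes NAD from nicotinic acid, had the largest difference at -1.59, which did not pass the test (edgeR adjusted p = 0.0255). It rests on few counts, with 13 to 15 per library in GSK-J4 and 3 in each LPS + GSK-J4 library. Nampt, the rate-limiting enzyme of NAD salvage, fell by 0.69 on the log2 scale (SE 0.16, edgeR adjusted p = 0.00440), from 248 to 154 CPM, and was the single gene of this list past the adjusted p. Of 10 Deltex genes and cofactors of ZAP or PARP enzymes, 9 were tested. By edgeR 1 was called higher and 0 lower, beside 2.95% and 0.809% of all genes tested, with a median of -0.03. At an unadjusted p below 0.05, 3 were higher and 3 lower, beside 19.3% and 15.5%. The called gene was Trim25, the ubiquitin ligase on which the antiviral action of Zc3hav1 depends. Its level was 19.6, 20.4 and 18.0 CPM in GSK-J4 and 64.8, 55.3 and 78.0 CPM in LPS + GSK-J4. The groups were far apart, with a log2 fold change of 1.76 (SE 0.17, 95% interval 1.40 to 2.12, edgeR adjusted p = 1.36e-06), close in size to that of Parp14. In the same list Xrcc1, a DNA-repair scaffold recruited by Parp1, fell by 1.02 on the log2 scale (SE 0.19, edgeR adjusted p = 0.00103), short of the fold threshold. Nampt, Xrcc1, Tiparp, Ifnar1, Ifnar2, Irf7, Mx1, Irf9, Stat2, Irf3, Tyk2 and Jak1 fall outside the rule for named genes and were chosen after their values were seen, as were the single cell markers named above.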

How the data were processed

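Counts were the 6 tables of fragments per gene that the authors deposited, made by STAR 2.5.1 on mm10 after CASAVA 1.8.2 and Trimmomatic 0.33 per the submitters' processing notes, with no normalization. The reverse-strand column was used, and 4 tally lines that name no gene, which hold fragments not counted on one gene, were left out. The annotation used for counting is not given in the sources used here. Groups and replicate numbers came from the labels' titles. The model was edgeR 4.0.16, run under R 4.3.3 together with limma 3.58.1: TMM factors, filterByExpr (minimum count 10, minimum total 15), robust quasi-likelihood test without covariates, and Benjamini-Hochberg adjustment over all 10133 genes tested. SE and 95% intervals are from that fit. Errors of levels are SD over 3 libraries, and the common BCV, the coefficient of variation between replicates, came to 0.133. The model was tested on simulated counts first. Summaries used pandas 2.3.3 and scipy 1.17.1 on Python 3.11.15, and plots matplotlib 3.10.9. Positions and exon lengths are from GENCODE vM21, promoter windows from RefSeq.

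The members, lists, tests and alternatives were chosen with earlier results of these data known. Named genes are the 9 members, every called gene of each list or else the tested gene with the largest change, the gene on each side of a member, the 3 genes most like Parp9, Dtx3l, Parp14 and Zc3hav1, and Rn45s. Alternatives were unstranded counts, other scalings, DESeq2 1.42.0, other filters and thresholds, removal of ribosomal features, a replicate block, and each library left out.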

Additional observations from a re-analysis of the deposited data

Results flagged for a closer look

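Fragments on the strand opposite to Parp9, which enter the report only through the alternative with unstranded counts, were higher in LPS + GSK-J4 than in GSK-J4 once TMM-scaled. Replicates 1, 2 and 3 of GSK-J4 had 12, 18 and 3 of them, and those of LPS + GSK-J4 had 17, 13 and 21. The mean was 2.66 ± 1.48 CPM (SD, n = 3) under GSK-J4 alone against 6.76 ± 1.86 CPM (SD, n = 3) with LPS. In these CPM the groups did not overlap, but the counts themselves did, so the separation rests on the scaling. Over the 6 libraries these 84 fragments were 11.8% of the fragments on either strand of Parp9, whereas the other 8 genes had between 0.958 and 2.38%. Dtx3l is transcribed on that strand and overlaps Parp9 by 682 bases, and its part in these fragments was not tested.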

How the results depend on the processing

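Over the alternatives, 287 values kept their direction and their side of the threshold, or stayed within 1.5 times for counts. Another 15 counts moved further, 1 value reversed, 2 became stronger and 1 weaker. The 287 include fold changes repeated under other thresholds and counts at 0 in every setting, which could not change. They also include genes not called in the main fit whose adjusted p crossed 0.01, such as Parp9 and Zc3hav1 in some fits that leave out a library. Scaling by library totals alone moved the median of all genes by -0.57 on the log2 scale. With it, 124 genes were called higher and 354 lower in place of 299 and 82, 0 of the 9 in place of 1, and 2 of the NAD genes in place of 0. The value of Parp14 was then 1.14 (adjusted p = 4.15e-06) that of Parp12 -0.25 (adjusted p = 0.286) and that of Parp1 -0.85 (adjusted p = 0.0029). Less that shift of the median they were 1.71, 0.31 and -0.29, which returns the TMM values by construction and is no separate check. At an adjusted p of 0.05 and a log2 fold change of 1, 844 genes were called higher and 285 lower, 3 of the NAD genes, and 3 of the Deltex and cofactor genes in place of 1. With no minimum fold change, 853 were called higher and 553 lower, with 3 of the 9, 1 NAD gene and 2 Deltex and cofactor genes, and Parp9 (0.79) and Zc3hav1 (0.61) passed. With at least 10 counts in every library, fewer genes entered the test and 176 were called higher. Leaving out each library in turn gave 0 to 1 NAD genes, with the 1 found without LPS + GSK-J4 replicate 1. Apart from the thresholds and library totals, the cause of these shifts was not tested. Samples with the same replicate number did not deviate together in every pair (r = -0.0102, 0.117 and 0.295). The numbers were therefore not taken as pairs. GSK-J4 replicate 1 correlated better with LPS + GSK-J4 replicate 2 (r = 0.0906) than with its own number. GSK-J4 replicate 2 correlated better with LPS + GSK-J4 replicate 1 (r = 0.243). Only GSK-J4 replicate 3 correlated best with its own number. With a replicate block in the model, 306 genes were called higher and 90 lower, 1 of the 9 was called higher, and Parp14 had 1.71. Dtx3l (0.64, adjusted p = 0.000545) then passed the adjusted p of 0.01 in the block fit. Parp11 and Parp8, the lowest of the 9 per kb, had the widest intervals, and the parts of depth and of spread between libraries in them were not tested.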
